A study of Homo sapiens with 96 samples.

Results

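The genes described here are 33 genes of mitosis and the spindle, read in single human embryonic stem cells. They were given as a list of symbols, and all 33 were found among the 58521 gene symbols of the count tables. The study evaluated a joint readout of DNA methylation and RNA in 96 single HUES64 cells, each titled by a position on a plate. Transcripts were read by SMART-seq2, which covers transcripts along their length, and the methylation of the same cells was not analysed here. HUES64 is an established human embryonic stem cell line. Every cell was labelled day 0 and had the genotype of an inducible DNMT1 knockout, DNMT1 being the methyltransferase that restores methylation on newly replicated DNA. The labels contradicted each other on doxycycline, which 1 field of every cell gave as added and another as not induced. All cells formed 1 group, no second culture was named, and the group therefore counts as 1 sample with no test between conditions. Levels are given over the 84 libraries that had at least 100000 gene reads, at least 2000 genes with a read and at least 1% of gene reads on mitochondrially encoded genes.

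During mitosis the replicated chromosomes condense, attach through their kinetochores to spindle microtubules, and are separated once the spindle checkpoint releases the anaphase-promoting complex (APC/C), a ubiquitin ligase. Many genes of this machinery are transcribed late in the cell cycle, under a common control that acts through short promoter elements known as the cell cycle genes homology region, with the core letters TTTGAA, and the CCAAT box bound by NF-Y. Pluripotent stem cells divide fast and are known for a short G1 phase.

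Promoter sequences of the members were looked up because the levels of these genes were correlated across cells. RefSeq windows of 300 bases around the annotated start (GRCh38.p14) were at hand for 26 of the 33 members, in 29 windows. AURKA, TTK, BUB3, UBE2C, BIRC5, TPX2 and HMGB2 were the other 7. The motif TTTGAA, on either strand, was in 21 of these 29 windows, or 72.4%, against 15.2% of all 35116 windows of the table. The motif CCAAT, on either strand, was in 20 of the 29, or 69%, against 34.6% of all windows, and 15 windows held both motifs, or 51.7%, against 5.90%. No window of AURKB, BUB1, PTTG1, CENPE or KIF2C held TTTGAA. The 4 members with the highest correlation with the mitosis score among those with a window are printed 5′ to 3′ in the direction of the gene, with TTTGAA or its reverse complement TTCAAA and CCAAT or its reverse complement ATTGG in capitals. The motifs did not overlap in these windows. The windows lie on chromosome 18 for NDC80 (chr18:2571307-2571606, plus strand), chromosome 17 for TOP2A (chr17:40417847-40418146, minus strand), chromosome 2 for BUB1 (chr2:110678014-110678313, minus strand) and chromosome 17 for AURKB (chr17:8210200-8210499, minus strand, the more upstream of 2 windows).
NDC80: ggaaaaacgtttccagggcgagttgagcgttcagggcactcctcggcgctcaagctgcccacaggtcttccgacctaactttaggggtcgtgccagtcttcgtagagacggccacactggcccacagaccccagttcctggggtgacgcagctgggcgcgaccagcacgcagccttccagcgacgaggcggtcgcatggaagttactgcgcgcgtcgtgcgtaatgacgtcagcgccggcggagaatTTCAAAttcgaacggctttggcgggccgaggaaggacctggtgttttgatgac
TOP2A: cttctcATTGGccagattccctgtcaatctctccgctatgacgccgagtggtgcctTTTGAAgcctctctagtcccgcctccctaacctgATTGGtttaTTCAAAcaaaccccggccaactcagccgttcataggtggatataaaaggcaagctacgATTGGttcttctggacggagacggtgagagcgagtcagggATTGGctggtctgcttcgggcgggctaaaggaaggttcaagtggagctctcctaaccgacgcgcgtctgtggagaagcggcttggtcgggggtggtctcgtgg
BUB1: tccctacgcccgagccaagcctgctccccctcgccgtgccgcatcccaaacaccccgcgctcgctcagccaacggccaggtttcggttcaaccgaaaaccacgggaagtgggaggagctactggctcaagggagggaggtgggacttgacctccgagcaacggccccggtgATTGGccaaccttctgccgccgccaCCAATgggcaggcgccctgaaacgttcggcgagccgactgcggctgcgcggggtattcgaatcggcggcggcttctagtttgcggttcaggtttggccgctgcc
AURKB: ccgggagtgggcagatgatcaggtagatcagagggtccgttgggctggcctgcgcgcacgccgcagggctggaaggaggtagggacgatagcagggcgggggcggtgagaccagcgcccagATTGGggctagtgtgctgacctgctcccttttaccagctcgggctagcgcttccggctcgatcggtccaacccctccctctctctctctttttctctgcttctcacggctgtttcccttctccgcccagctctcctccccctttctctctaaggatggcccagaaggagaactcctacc
NDC80 held TTTGAA 1 time and no CCAAT, TOP2A held 2 and 4, BUB1 held no TTTGAA and 2 CCAAT, and AURKB held no TTTGAA and 1 CCAAT. Such matches are a description of the letters, and no binding was measured.

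The 84 libraries had 118549 to 1877837 gene reads (median 768161), so that 3 reads, the floor used here, corresponded to 25.3 down to 1.60 CPM. CPM is the count of a gene scaled so that all genes of a library sum to the same total. They showed 7986 to 19336 genes with a read. The targeted gene, DNMT1, averaged 29.4 ± 47 CPM and had a read in 75 of the 84 libraries. Most defining markers of the cell type were well above the median of all genes: TDGF1 had a mean of 684 ± 441 CPM (SD, n = 84), DPPA4 574 ± 314 and POU5F1 448 ± 314, and 11 of 12 pluripotency markers had a mean of at least 10 CPM. NANOG averaged 58.3 ± 56.9 CPM, SOX2 averaged 32.9 ± 46.9 CPM, and ZFP42, the exception, 2.83 CPM with a median of 0. Of the other lineages 2 of 8 fibroblast, 1 of 6 endoderm, 3 of 6 mesoderm and primitive streak, 3 of 6 neural and 1 of 6 trophoblast and amnion markers had such a mean, and the summed level of these lists correlated with the mitosis score at rho from -0.13 to 0.33. The highest of these rho was that of the fibroblast list, whose markers summed to 3.46 to 909 CPM with a median of 227. THY1 (175 ± 136 CPM) and COL1A2 (41.7 ± 108 CPM) made up most of that sum, and the other 6, with COL1A1 and DCN among them, averaged under 6 CPM each. The neural list summed to 10.4 to 1340 CPM, led by PAX6 with 148 ± 182 CPM, which had 1044 CPM in the 9 left-out libraries with at least 10000 gene reads, and the medians of the other 3 lists lay between 17.4 and 26.1 CPM. The pluripotency markers summed to a median of 4047 CPM, from 66.3 to 6741, with a rho of 0.30. A mean z-score of log2(CPM + 1) over the 11 tested pluripotency markers had a rho of 0.56 with the mitosis score. In ranks residualised on gene reads and genes detected this rho was 0.35. The part of these marker lists in the results was not tested. Some libraries stood apart: GAPDH was under 100 CPM in 13 of the 84, and in plate rows F and G, with 22 libraries, the median of genes detected was 16874 and 16076, against 10745 to 15165 in the other 6 rows with 62 libraries. Correlations are therefore also given without each of these sets, while levels of single members are mostly given over all 84. The highest values of TTK, NUF2, CENPA, CENPE, CENPF, BIRC5, TPX2 and KIF11 were from libraries under 100 CPM of GAPDH. So were those of KIF20B, KIF23, ANLN, SMC4, NCAPG, MKI67, PTTG1 and CKS1B. The SDs describe cells of this plate, and p-values are not given. Wells are named by their titles. For wells of columns 1 and 12 the table's own name gave the other of these columns.

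Most members had a high mean. The mean over the 84 libraries was at least 100 CPM for 24 of the 33 members, against 21.2% of the 8995 genes tested, which averaged 10 CPM or more and were seen in 10% or more of the libraries. The median of the members' means was 149 CPM, and that of all genes tested was 38 CPM. With medians over libraries in place of means, the median over the members was 98.5 CPM. By that measure most members were thus under 100 CPM. All 33 members were among the genes tested. Their summed share of a library's gene reads had a median of 0.726% and ran from 0.0586% in well E10 to 1.92%. The members were described in 8 groups by role.

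Among the mitotic kinases, BUB1, a checkpoint kinase at the kinetochore, had the highest mean in CPM. It ran from 0 through a median of 218 to 694 CPM, with a mean of 234 ± 202 CPM (SD, n = 84). TTK, the kinase known as MPS1 that starts checkpoint signalling, ran from 0 through 39.8 to 746 CPM. AURKA, which acts at centrosomes and spindle poles, ran from 0 through 74.5 to 425 CPM, and AURKB, the kinase of the chromosomal passenger complex, from 0 through 16.8 to 388 CPM. PLK1, which drives mitotic entry and many later steps, had a median of 6.36 and a highest value of 337 CPM in well E11. PLK1 thus had a median near the level of 3 reads, while BUB1 was well above it in most libraries: 69 libraries had at least 10 CPM of BUB1 and 40 had at least 10 CPM of PLK1. PLK1 lies opposite to ERN2, and its stranded counts summed to 1.2 times the unstranded count used here, which leaves reads in stretches shared by both genes unassigned.

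The checkpoint and APC/C genes included some of the highest and some of the lowest levels. UBE2C, the ubiquitin-conjugating enzyme of the APC/C, ran from 0 through a median of 381 to 1721 CPM, and 10 libraries had no read of it. PTTG1, or securin, the inhibitor of separase, ran from 0 through 375 to 7263 CPM. Its highest value was that of well F3, the library with the fewest gene reads, the next highest was 4149 CPM, and its mean of 655 ± 1023 CPM was 575 CPM without the library of F3. BUB3, a checkpoint protein that is also present outside mitosis, ran from 0 through 508 to 1467 CPM. BUB1B, the checkpoint protein BubR1, ran from 0 through 99.3 to 829 CPM, and shares exons with the annotated readthrough gene BUB1B-PAK6, so that its count is uncertain. CDC20, the activator of the APC/C that the checkpoint holds back, had a median of 8.51 and a highest value of 299 CPM.

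At the kinetochore and centromere, CENPF, a large protein of the outer kinetochore, ran from 0 through 355 to 2056 CPM, and CENPE, a kinesin that moves chromosomes to the spindle equator, from 0 through 107 to 1840 CPM. Both had their highest value in well E4, a library with 8.15 CPM of GAPDH. NDC80 and NUF2, which pair in the complex that binds microtubules, had medians of 23.6 and 56.1 CPM and highest values of 537 and 1029 CPM. CENPA, the histone H3 variant that marks centromeres, was the member seen least: 50 libraries had no read, the median was 0, and the highest value was 977 CPM in well C12. That library held 29.8% of all CENPA CPM, and the mean of 39 ± 122 CPM was 27.7 CPM without it. Well C12 had the lowest mitosis score of all 84 libraries and no GAPDH read. The chromosomal passenger subunits BIRC5, or survivin, and CDCA8, or borealin, ran from 0 through 61.8 to 817 CPM and from 0 through 6.48 to 386 CPM.

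Genes of spindle assembly and its motors lay between these. NUSAP1, a microtubule-bundling protein, ran from 0 through 196 to 2197 CPM, and TPX2, the activator of AURKA on the spindle, from 0 through 129 to 1372 CPM. DLGAP5, which stabilises kinetochore fibres, ran from 0 through 78 to 1455 CPM, and HMMR, a spindle pole protein, from 0 through 98.5 to 766 CPM. The highest value of NUSAP1, DLGAP5 and HMMR was in each case that of well B2, as it was for NDC80. Of the kinesins, KIF11, which slides spindle poles apart, had a median of 85.2 CPM, KIF20B, a kinesin of late mitosis, 141 CPM, and KIF2C, a depolymerase at centromeres, 7.16 CPM. For cytokinesis, KIF23, the kinesin of centralspindlin, had a median of 60.8 and anillin, encoded by ANLN, one of 95.4 CPM.

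Of the chromosome genes, TOP2A, the topoisomerase that untangles sister chromatids, had the highest mean of all members on the CPM scale. It ran from 0 through 600 to 2213 CPM, with a mean of 692 ± 537 CPM. HMGB2, a chromatin protein, ran from 0 through 317 to 1670 CPM, and MKI67, the proliferation mark that coats mitotic chromosomes, from 0 through 148 to 1820 CPM. NCAPG, a subunit of condensin I, had a median of 57.7 CPM. SMC4, the core subunit shared by both condensins, had a mean of 190 ± 258 CPM. IFT80 and TRIM59 are annotated on the opposite strand of the same stretch (chr3:160399274-160434962, GRCh38), so the level of SMC4 is uncertain. Its stranded counts summed to 1.79 times the count used, and its mean was 297 CPM in the sum of both strand columns. NCAPG, opposite to LCORL, had a ratio of 1.2, and the other 31 members had ratios from 1.0 to 1.2.

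CKS1B and CKS2, small paralogous subunits that bind cyclin-dependent kinases, were high in most libraries. CKS2 ran from 0 through 623 to 3648 CPM. CKS1B ran from 3.88 through 411 to 3830 CPM and was the member with a read in every library. CKS1B has 6 annotated pseudogene copies and UBE2C has 4, so that reads may be split with a copy and both levels are uncertain. AURKA and NCAPG have 2 such copies each, and BUB1, BUB3, CDC20, DLGAP5, SMC4, HMGB2 and MKI67 have 1 each, with the same limit. On the same strand CENPA overlaps SLC35F6, and NUSAP1 overlaps AC087721.1 and AC087721.2, which may affect their counts too. Per kilobase of exon CKS2 led with a mean of 1080 ± 836 CPM per kilobase, followed by UBE2C with 387 ± 390, PTTG1 with 325 ± 508, CKS1B with 221 ± 229 and HMGB2 with 133 ± 104. CKS2 lay above UBE2C by more than the SD of UBE2C and by less than its own, and each later pair of neighbours among these 5 differed by less than either SD. The lowest were KIF2C with 11.4 ± 19.2 and PLK1 with 8.50 ± 13.7 CPM per kilobase. Exon length was that of all annotated exons joined and can exceed the transcript of these cells.

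**Figure D1:**
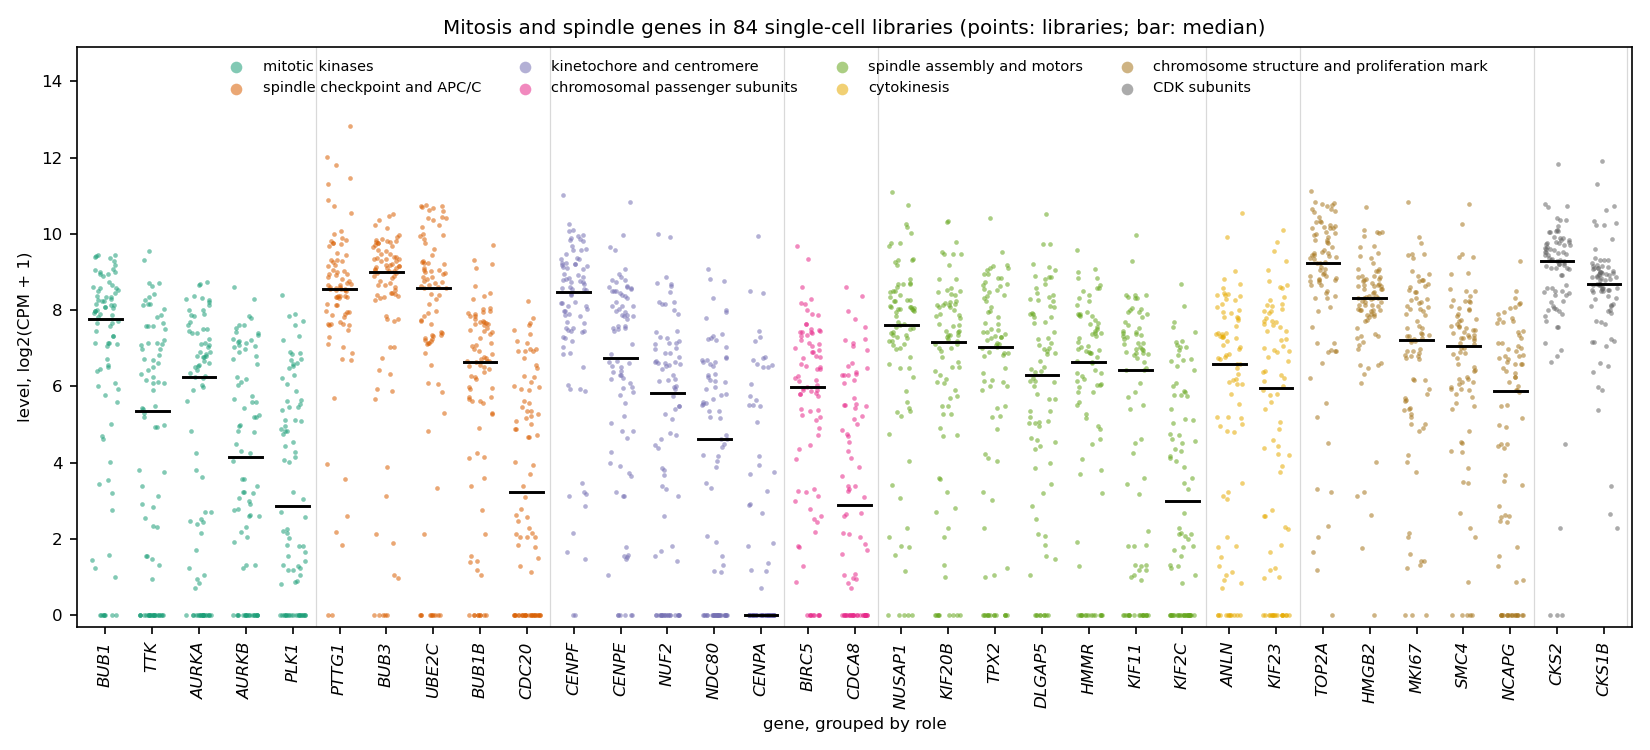
Level of each of the 33 members, as log2(CPM + 1) on the vertical axis, in each of 84 libraries (points), grouped by role on the horizontal axis, with the median as a bar. TOP2A, CKS2 and BUB3 had medians of 600, 623 and 508 CPM, while the median of CENPA was 0 and points at 0 occur for every member but CKS1B.

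A read was present in at least 50% of the libraries for 32 of 33 members, against 91% of all genes tested, so that this count alone does not set the members apart. The exception was CENPA, with a read in 34 of 84 libraries, or 40.5% (exact Clopper-Pearson 95% interval 29.9 to 51.7). NDC80 and CDCA8 had a read in 57 libraries each, or 67.9% (56.8 to 77.6). With every library thinned to 100000 gene reads, 31 of 33 members had a read in at least 50% of libraries, against 60% of all genes tested, and KIF2C joined CENPA below that level with 46.4%. These intervals cover counting error only, and reads without molecular identifiers are not independent molecules. The 9 left-out libraries with at least 10000 gene reads and under 1% mitochondrial reads serve as a level to compare with. The mean in the kept libraries was above the pooled level of these 9 for 33 of 33 members, against 77.4% of all genes tested, and more than 5 times it for 32 of 33 members, against 48.1%. BUB1B was the exception, with a mean of 136 CPM and a pooled level of 27.7 CPM in the 9.

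How strongly a member varied was set against a curve of squared variation coefficient (CV2) against mean, drawn through all genes tested. A gene was called at an excess of at least 1 in log2 CV2, which 13.5% of all genes tested reached. Of the 33 members 2 did, PTTG1 with an excess of 2.21 and CENPA with 1.69. The median excess was 0.23 for the members and 0.00 for all genes tested. Without each gene's highest library 3 members were called, PTTG1 with 1.79, CENPA with 1.02 and UBE2C with 1.01, against 6.13% of all genes. UBE2C stood at 0.71 with all libraries. Without the 13 libraries under 100 CPM of GAPDH 4 members were called, PTTG1 with 1.46, NUSAP1 with 1.3, UBE2C with 1.18 and DLGAP5 with 1.08, against 9.84% of all genes, and CENPA stood at 0.79. With TMM scaling 4 were called as well, CENPA with 3.11, PTTG1 with 1.85, ANLN with 1.16 and CENPE with 1.05, against 17.7% of all genes. In CPM over all 84 libraries the 4 lowest were CDC20, BUB1, AURKA and AURKB, with excesses from -0.43 to -0.35, below the curve for genes of their mean.

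Levels of the members were mostly positively correlated across cells. Spearman's rho over the 84 libraries had a median of 0.27 over the 528 pairs of members and of 0.09 over all pairs of genes tested. It was at least 0.3 in 41.3% of the member pairs and in 7.90% of all pairs, and 30 member pairs were below 0. Genes of 1 library share its depth and quality, so ranks were also residualised on gene reads and genes detected. The medians were then 0.23 for the member pairs and 0.04 for all pairs, and 30.9% and 2.38% of pairs reached 0.3. With the score of 12 housekeeping genes held constant as well, they were 0.22 and 0.02. Without rows F and G the medians were 0.27 and 0.09. Pairs within 1 of the 8 roles had a median of 0.33, and pairs across roles one of 0.27.

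The pair with the highest rho was DLGAP5 and TOP2A, at 0.62. AURKA and DLGAP5 followed at 0.60, TTK and NDC80 at 0.59, CENPE and CENPF at 0.58, and PLK1 and CDC20 at 0.58. In the residualised ranks these 5 pairs had rho from 0.50 to 0.60, and without rows F and G from 0.53 to 0.61. CENPE and CENPF had a read together in 78 libraries, and PLK1 and CDC20 in 50. Of the 5 lowest pairs 4 held PTTG1, with KIF23 at -0.20, MKI67 at -0.19, ANLN at -0.13 and BUB3 at -0.12, and the other was KIF23 with HMGB2 at -0.13. By role the mitotic kinases had the highest median among groups with more than 1 pair, 0.39 over 10 pairs, from 0.32 to 0.57. The 10 pairs of the chromosome genes had a median of 0.25.

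A second block stood out in the matrix of pairs and was chosen after it was seen. A higher rho inside it than with the other members is therefore built in. HMGB2, PTTG1, CKS1B and CKS2 had a median rho of 0.39 over their 6 pairs, and of 0.11 over their 116 pairs with the other 29 members, which had 0.30 among themselves. PTTG1 and CKS2 reached 0.57 and CKS1B and CKS2 0.44, while HMGB2 and CKS2 had 0.27, the lowest of the 6. Some pairs with members outside the block were as high. CKS2 had 0.48 with DLGAP5 and 0.42 with TOP2A, and UBE2C had 0.28 to 0.40 with each gene of the block. In residualised ranks the medians were 0.33, 0.12 and 0.25, and in the 71 libraries with at least 100 CPM of GAPDH 0.36, 0.21 and 0.32. Measures of library quality varied with these genes. Their rho with genes detected was -0.27 for PTTG1, -0.12 for HMGB2, -0.10 for CKS2 and -0.08 for CKS1B, while the other 29 members ran from -0.05 through a median of 0.23 to 0.49, with KIF20B and HMMR below 0. In the 13 libraries under 100 CPM of GAPDH PTTG1 ran from 0 through a median of 845 to 7263 CPM, against 0 through 364 to 3598 CPM in the 71 others. The medians were closer for the other genes of the block. HMGB2 had 394 CPM in the 13 against 299 CPM in the 71, CKS1B 552 against 408 CPM, and CKS2 727 against 603 CPM. Higher medians in the 13 were not confined to the block. HMMR had 230 CPM in the 13 against 98.5 CPM over all kept libraries, and CENPE had 218 against 107 CPM. NUSAP1 had 407 against 196 CPM, and KIF20B 281 against 141 CPM. Every further member outside the block had a lower median in the 13 than over all kept libraries, except CENPA with 0 in both. The exon lengths of the block's genes, 613 to 2775 bases, were below the members' median of 3815 bases. Across the 33 members exon length and rho with the score were nearly unrelated (rho = 0.02, a description across genes). The part of library quality in this block was not tested.

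**Figure D2:**
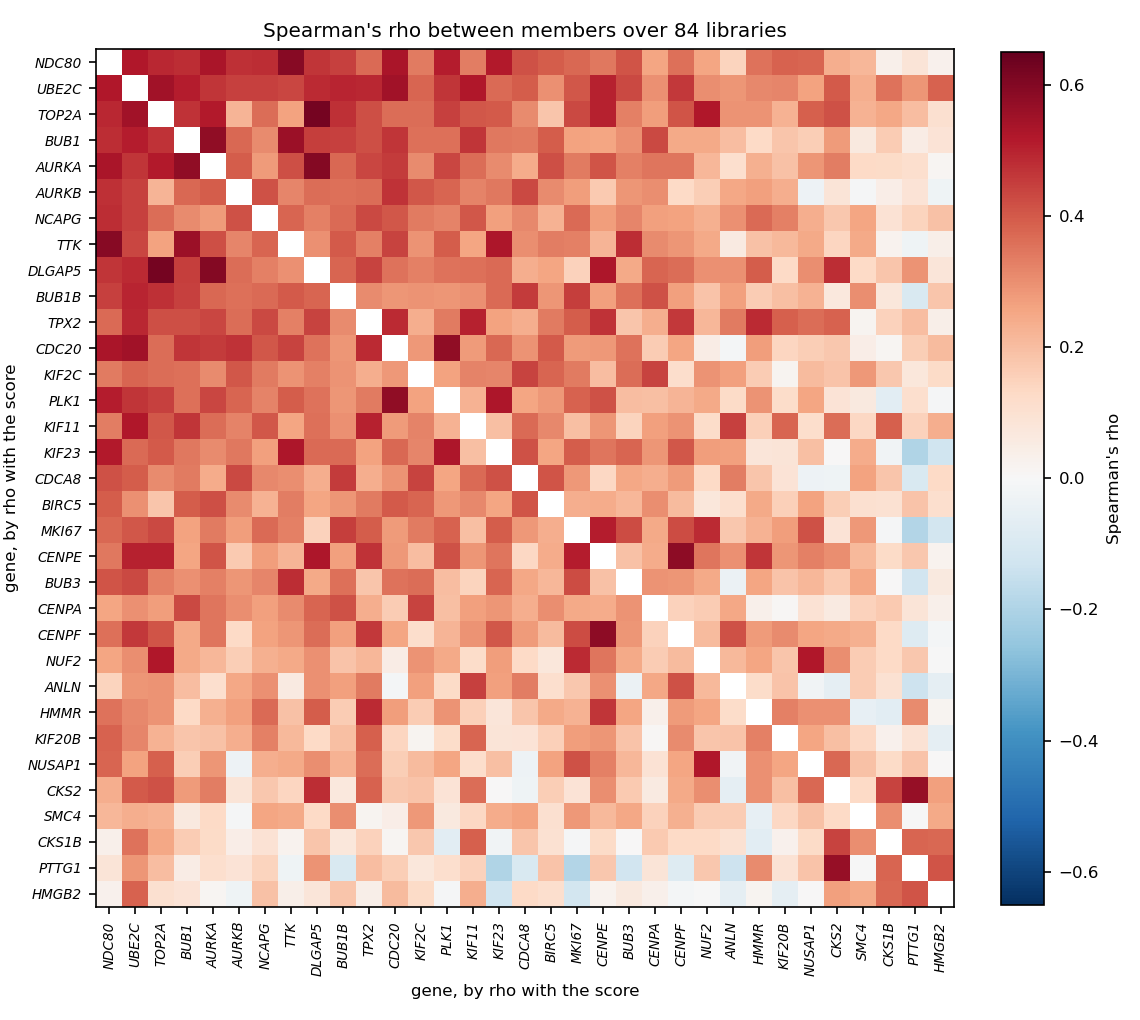
Spearman's rho between each pair of the 33 members over 84 libraries, colour from blue (negative) to red (positive), with genes on both axes in order of their rho with the mitosis score. DLGAP5 and TOP2A reach 0.62, and CKS2, CKS1B, PTTG1 and HMGB2 lie in the lower right corner with SMC4 between the first and second of them, PTTG1 and CKS2 reaching 0.57.

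A mitosis score was then formed for each library as the mean z-score of log2(CPM + 1) over the members, each member being left out of the score it was compared with. Of the 33 members 29 had a rho of at least 0.3 with the score, against 32.3% of all genes tested. NDC80 had the highest, 0.71, followed by UBE2C with 0.70, TOP2A with 0.63, BUB1 with 0.63 and AURKA with 0.62. The 4 below 0.3 were SMC4 with 0.29, CKS1B with 0.19, PTTG1 with 0.12 and HMGB2 with 0.10. In the sum of both strand columns the rho of SMC4 was 0.17. The median over the members was 0.54, and over all genes tested it was 0.23.

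The share of all genes called fell once depth was held constant, while the members' count hardly moved. In ranks residualised on gene reads and genes detected 29 of 33 members reached 0.3, against 7.77% of all genes tested, and with the housekeeping score held constant as well 28 of 33 did, against 2.67%. Residualised on reads and genes, TOP2A, UBE2C and NDC80 had 0.65 each. Without rows F and G 28 members reached 0.3, against 33.3% of all genes, and within rows F and G 27 did, against 32.8%. In the 71 libraries with at least 100 CPM of GAPDH 31 of 33 members reached it, against 16% of all genes tested. Across the 33 members, mean CPM and rho with the score had a rho of -0.37, as a description across genes. NDC80, with a mean of 64.6 ± 103 CPM, was at the top of the order, and HMGB2, with 370 ± 287 CPM, at its end.

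Genes of the same machinery outside the 33 were correlated with the score too. Of a list of 75 other mitosis genes 70 were tested, and 47 of these, or 67.1%, had a rho of at least 0.3 with the score, with a median of 0.42. In residualised ranks 35 of the 70 did, with a median of 0.30. PKMYT1, MAD1L1, CEP55, UBE2S and GSG2, now HASPIN, had means under 10 CPM and were not tested. The highest were G2E3, a ubiquitin ligase, with 0.71, CDC25C, the phosphatase that activates CDK1, with 0.65, the chromokinesin KIF4A with 0.64, CDCA2 with 0.61 and CASC5, now KNL1, the kinetochore scaffold of checkpoint proteins, with 0.61. CDC25C was seen in 36 libraries only, with a mean of 19.4 ± 36.6 CPM. The lowest were CENPW with 0.03, CCNB2 with 0.04 and ESPL1, or separase, with 0.09.

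Across the 70 tested genes of that list mean CPM and rho with the score had a rho of 0.01, as a description across genes. Its 8 most abundant genes were STMN1 with 880 ± 520 CPM, CCNB2 with 670 ± 666, MAD2L1 with 594 ± 453, CDK1 with 425 ± 418, CCNB1 with 299 ± 271, ASPM with 256 ± 282, CCNA2 with 238 ± 190 and ECT2 with 188 ± 232 CPM. CDK1 and CCNB1, the kinase and cyclin that drive entry into mitosis, both had a rho of 0.54 with the score. ASPM had 0.51, ECT2 0.46 and STMN1 0.34, so 5 of these 8 reached 0.3. MAD2L1 had 0.23, CCNA2 0.21 and CCNB2 0.04. CCNB2 and CCNA2 also differed from the members in the 9 left-out libraries, whose pooled level was 3152 CPM for CCNB2 and 1087 CPM for CCNA2, while CCNB1 had 19.8 and CDK1 1.98 CPM there. The part of such reads in the rho of CCNB2 and CCNA2 was not tested.

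Of all 8962 genes tested outside the members, the 10 with the highest rho with the score were KPNA2, an importin, with 0.71, G2E3, AP2B1 with 0.70, FLOT2 with 0.65, the tubulin TUBA1C with 0.65, CDC25C, KIF4A, TPI1P1 with 0.61, CDCA2 and CASC5. Of these 10, 5 were on the list of other mitosis genes, which holds 70 of the 8962. TPI1P1 is annotated as a copy of the glycolysis gene TPI1 and had 0.26 with reads, genes and housekeeping score held constant, against 0.63 for KPNA2 and 0.64 for G2E3. Ordered by residualised rho instead, 7 of the first 10 were on that list. This second order was picked with values in view. It brought in ARHGAP11A with 0.55, SGOL2, now SGO2, with 0.53, CCNB1 with 0.52, CKAP2 with 0.51 and PRC1 with 0.51. It also brought in TRIM59 with 0.51, a gene that shares its stretch of chromosome 3 with SMC4.

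Genes of DNA replication had lower rho with the score than the members. Of a list of 36 genes of G1/S and replication 34 were tested, and 6 of these, or 17.6%, had a rho of at least 0.3 with the mitosis score, below the 32.3% of all genes, while the medians of 0.22 and 0.23 were close. Without rows F and G 8 did, or 23.5%, against 33.3%. Within rows F and G the order turned, with 13 of the 34, or 38.2%, against 32.8%. In residualised ranks over all libraries 2 did, or 5.88%, against 7.77%. The highest were BRIP1 with 0.48, DTL with 0.44 and PRIM1 with 0.40, and the lowest were MCM5 with -0.0018, UHRF1 with -0.02 and MCM2 with -0.02. Member pairs with these genes had a median rho of 0.07, and the replication genes among themselves had 0.19. Of 12 housekeeping genes 10 reached 0.3 as measured, led by GAPDH with 0.60, 4 did in residualised ranks and 0 with the housekeeping score held constant, as that score contains them. No test of the difference between lists was made.

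**Figure D3:**
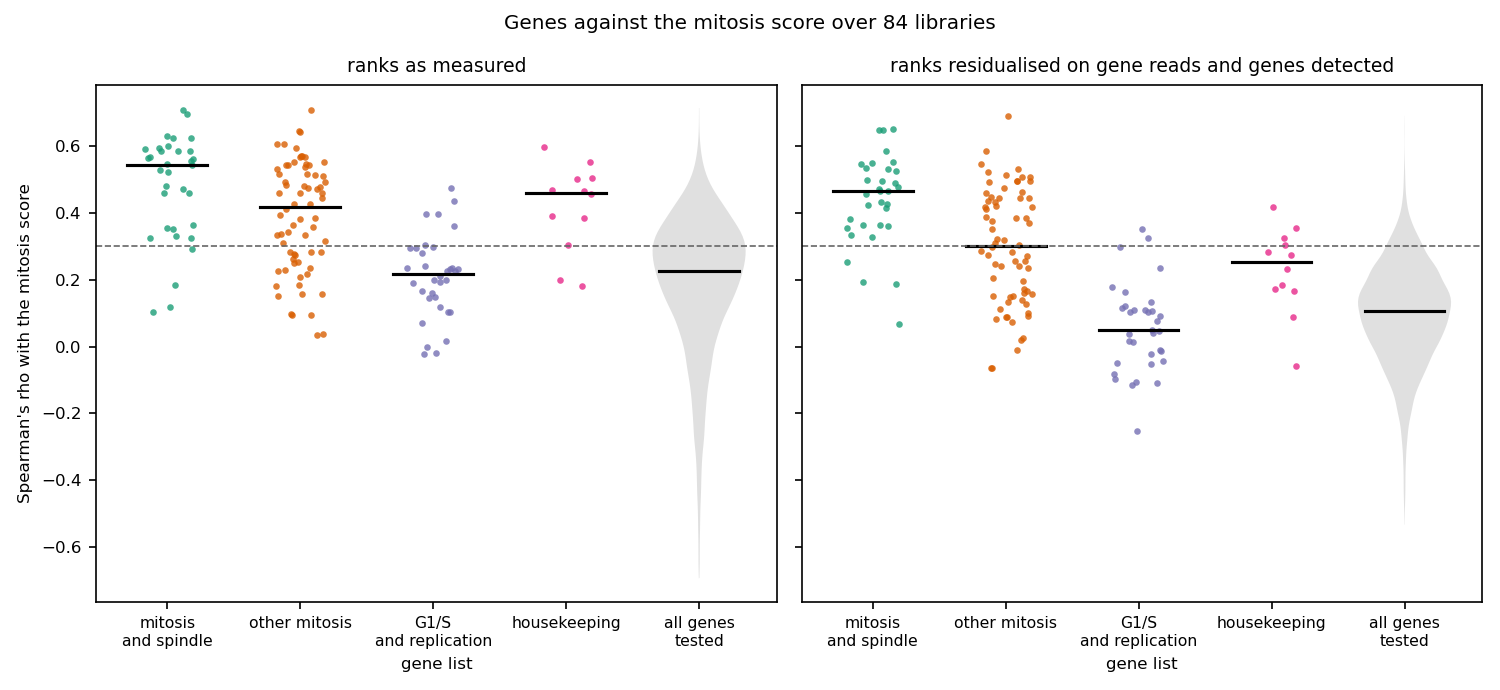
Spearman's rho with the mitosis score over 84 libraries (vertical axis) for each gene of 4 lists (points, bar at the median) and for all 8995 genes tested (grey violin), as measured (left) and after residualising ranks on gene reads and genes detected (right), with the dashed line at 0.3. The members' median is 0.54 on the left and 0.47 on the right, and the violin's is 0.23 and 0.11.

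Libraries were last put in order along the score. It ran from -1.56 in well C12 to 0.97 in well H5, with quartiles at -0.29 and 0.44 and a median of 0.04. The widest gap between neighbours was 0.27, near the lower end between wells E10 and C3, and no wider break parted the libraries. The number of members at 10 CPM or more ran from 3 in well C12 to all 33, with a median of 26. All 33 were at that level in 7 libraries, and 69 libraries had at least 17. The score had a rho of 0.95 with this number of members, and of 0.59 with the share of gene reads on the members. The order thus followed how many members were at 10 CPM more closely than their summed level. Score, number and share are formed from the same 33 genes, so positive rho between them are built in. Well A8, with the highest share at 1.92%, was at rank 34, and well E4, with 1.85%, at rank 59. Well E11, second in the order, had 1721 CPM of UBE2C, 1388 of TOP2A and 337 of PLK1 with 510879 gene reads. Well H10, near the low end at -0.92, had 3.36 CPM of UBE2C, 73.9 of TOP2A and 1.68 of PLK1 with 595268 gene reads and 1853 CPM of GAPDH. UBE2C, TOP2A and PLK1 are part of the score, so a contrast in them between its ends is built in. The low score of H10 stood in a library with abundant GAPDH, while C12 and A5, also near the low end, had no GAPDH read, and E10 had 41.8% mitochondrial reads.

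The score of the 33 members followed that of the other mitosis genes with a rho of 0.88 (n = 84), 0.83 in residualised ranks, 0.88 without rows F and G and 0.87 within them. Its rho with the score of replication genes was 0.51 as measured and 0.21 in residualised ranks, and without the 13 libraries under 100 CPM of GAPDH it was 0.33. With the score of pluripotency markers its rho was 0.56 as measured and 0.35 in residualised ranks. Several measures of quality moved with the score: rho was 0.44 with genes detected, 0.40 with gene reads, 0.60 with the housekeeping score and -0.51 with the log2 ratio of reads on MT-CO2 over MT-CO1. It was -0.19 with the mitochondrial share. Their part in the order of the libraries was not tested. By plate row the median score ran from -0.40 in row E to 0.34 in row G, and the ranges of all 8 rows overlapped. Of the 33 members 16 had a higher mean in rows F and G than in the other rows. No share of all genes tested is given beside this count, so it cannot tell whether the members differ from other genes. TOP2A averaged 856 ± 540 CPM in rows F and G and 634 ± 528 CPM in the other rows. CDC20 averaged 26.7 ± 43.6 and 47.7 ± 66.9 CPM there, and both differences were smaller than either SD.

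**Figure D4:**
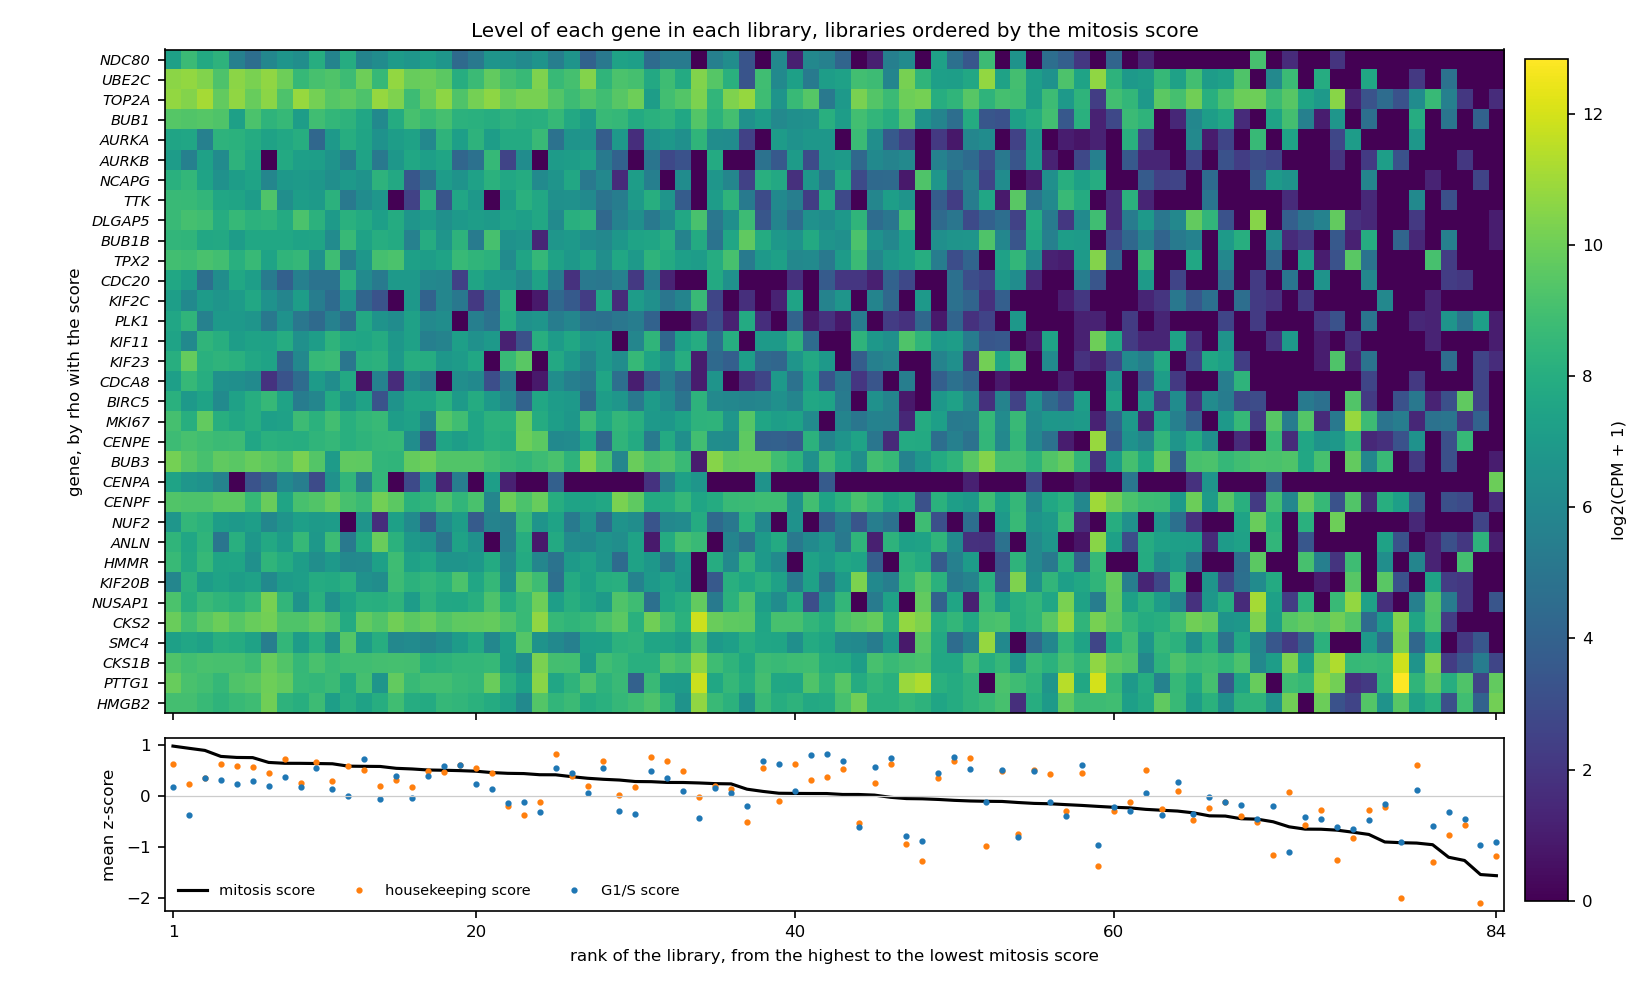
Level of each member (rows, colour as log2(CPM + 1)) in each of 84 libraries (columns), with libraries ranked from the highest mitosis score on the left to the lowest on the right, and the mitosis, housekeeping and replication scores as mean z-scores below. The number of members at 10 CPM or more tends to fall without a break towards the right, where well C12 has 3. CKS2, CKS1B, PTTG1 and HMGB2, among the 5 lowest rows with SMC4, stay high over most of the width.

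**Figure D5:**
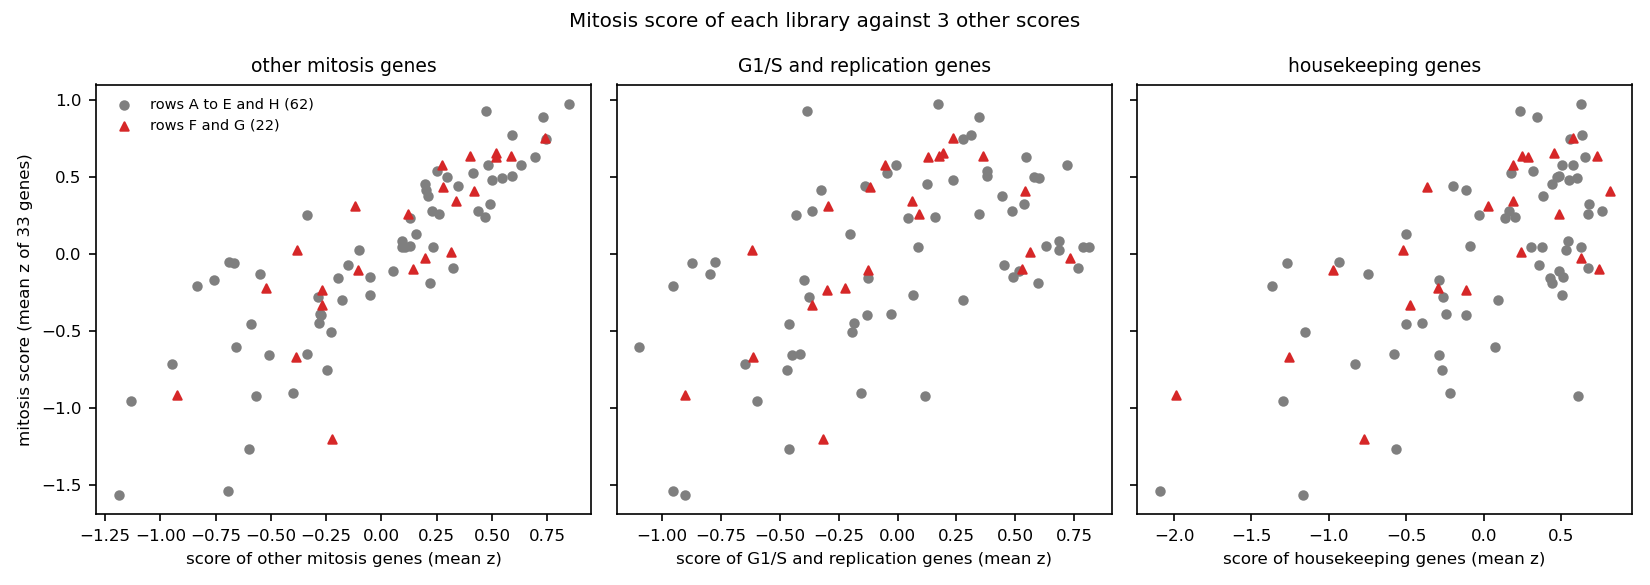
Mitosis score of each library (vertical axis, mean z of 33 genes) against the scores of other mitosis genes (left), G1/S and replication genes (middle) and housekeeping genes (right), with the 22 libraries of rows F and G as red triangles and the 62 of the other rows in grey. The rho over 84 libraries is 0.88, 0.51 and 0.60 from left to right.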

How the data were processed

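RNA of 96 single HUES64 cells was read by poly(A) capture, SMART-seq2 and Nextera XT, per the labels' protocols. Per the submitters' processing notes, the tools were FastQC and STAR (version 2.7.3a), with hg38 and GRCh38.p2 as builds. The sources used here name no annotation. The tables the authors deposited hold raw counts of reads per gene in 3 columns, 1 unstranded and 1 for each strand, and the unstranded one was used. The 4 summary lines, 88.8% of all reads, were left out of library sizes.

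Members, gene lists and thresholds were chosen with earlier results of these data known. Counts were scaled to CPM. Genes tested averaged 10 CPM or more and were seen in 10% or more of the 84 libraries. The CV2 trend was a lowess curve (fraction 0.5, statsmodels 0.14.6). Correlations are Spearman's, with ranks residualised by linear regression where stated, and carry no p-value, as all cells count as 1 sample. Scores are means of z-scored log2(CPM + 1) over tested genes. Thinning drew 100000 gene reads a library (seed 1). Genes were placed with GENCODE 29 (GRCh38), which held all 33 members by symbol and is not known to be the authors' annotation. Scripts were tested on simulated data. Named were all members, the 5 highest and 5 lowest pairs, of the other mitosis list the 8 most abundant, 5 highest and 3 lowest by rho, the 10 highest of all other genes and 3 at each end of the G1/S list. The promoter windows shown were the 4 with the highest rho. All other names were picked with values in view. The alternatives covered strand column, TMM scaling (edgeR 4.0.16), depth, filters, plate rows, average, score and measure.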

Additional observations from a re-analysis of the deposited data

Results flagged for a closer look

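The 12 libraries left out of the levels held reads of the members above what 0 counts would allow. In the 9 of them with 87891 to 155710 gene reads and 0.00778% to 0.677% mitochondrial reads, 348 of 1009549 gene reads, or 0.0345% (exact 95% interval 0.0309 to 0.0383), were on the members, against 0.780% in the 84 kept libraries. In the 3 with 768 to 1133 gene reads, 17 of 2880, or 0.590% (0.344 to 0.943), were on 9 of the members, with 2.96% to 5.30% mitochondrial reads. That interval includes the share of the kept libraries and not that of the 9. The intervals cover counting error only.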

How the results depend on the processing

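The rho of at least 0.3 with the score was reached by 28 to 31 members over 16 alternatives, and the median rho over member pairs ran from 0.22 to 0.33 over 14. The share of all genes tested at that rho was 32.3% in the main setting and 33.3% without rows F and G. It was 16% without libraries under 100 CPM of GAPDH, 7.77% in residualised ranks, and 2.67% with the housekeeping score held constant as well. The number of members with a read in at least 50% of libraries was 31 or 32, against 91% of all genes tested in the main setting and 60% in thinned libraries. The median of the members' means was 98.5 CPM with medians over libraries in place of means and from 138 to 170 CPM elsewhere. Variability called 4 members with TMM scaling, against 17.7% of all genes, 4 without libraries under 100 CPM of GAPDH, against 9.84%, and 1 among genes seen in 50% or more of libraries, where CENPA is not tested, against 15%; apart from this last, the cause was not tested. The rho of the mitosis and G1/S scores was 0.209 in residualised ranks and 0.335 without libraries under 100 CPM of GAPDH, and the cause was not tested. The sum of strand columns, the housekeeping residuals and the GAPDH filter were chosen after seeing the data. No value reversed. No paired analysis was possible because all libraries form 1 group. Depth limits PLK1, CDC20, CDCA8, KIF2C and CENPA, whose medians lay between 0 and 8.51 CPM.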
